A study of Mus musculus with 9 samples.

Results

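Endothelins, nitric oxide and prostaglandins are local signals that set the tone of blood vessels, and 10 mouse genes of these pathways were followed in astrocyte TRAP libraries. The genes were listed by symbol and comprise the ligands Edn1 and Edn3, the receptors Ednra and Ednrb, the processing enzyme Ece1, the nitric oxide synthases Nos1 and Nos3, the cyclooxygenases Ptgs1 and Ptgs2 and the prostaglandin D synthase Ptgds. They are 10 of the 22092 genes with a count table entry, and all 10 passed the filter on low counts that left 14427 genes for testing. TRAP pulls down ribosomes through a GFP tag on their L10a protein and sequences the mRNAs they hold. All mice were 2 months old, of the strain Aldh1L1 JD130, and carried the transgene tg:Aldh1L1-L10aGFP, in which the astrocyte promoter of Aldh1l1 drives the tagged protein. Polysomal mRNA was taken from whole brain in 3 libraries (whole astrocyte TRAP, 1 brain each, choroid plexus removed) and from purified brain vessels, to which astrocyte endfeet stay attached, in 6 libraries (endfeet TRAP, 8 mice pooled for each). Other cells of the vessels remain in the purified fraction, and their marker mRNAs were counted in the endfeet libraries.

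Endothelins are secreted peptides that are cut from a precursor by endothelin converting enzyme and act on a pair of G protein-coupled receptors, of which the type A receptor of smooth muscle mediates constriction and the type B receptor is found on astrocytes and endothelium. Nitric oxide, made from arginine by its synthases, diffuses into smooth muscle and relaxes it through guanylate cyclase and cGMP. Prostaglandins are made from arachidonic acid by the cyclooxygenases and by terminal synthases, and dilate or constrict vessels according to the receptor they bind.

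Levels are given as CPM (counts per 1e6 counts, after TMM scaling between libraries), and fold changes as log2 of endfeet TRAP over whole astrocyte TRAP. The libraries held 35984144 to 43521208 gene counts (whole astrocyte) and 2319495 to 13450588 (endfeet). Of the 10 genes, 8 were higher in endfeet TRAP, namely Edn1, Edn3, Ednra, Ece1, Nos1, Nos3, Ptgs2 and Ptgds, and for the same 8 genes every endfeet library lay above every whole astrocyte library. Among all genes tested, 20.7% were higher in endfeet TRAP and 18.9% had every endfeet library above every whole astrocyte library. None of the 10 genes was lower by edgeR's quasi-likelihood test, by DESeq2 or by limma voom, and 0 were lower at an unadjusted p under 0.05, whereas 13.9% of all genes were lower and 23.8% had every endfeet library below every whole astrocyte library. The remaining pair, Ednrb and Ptgs1, did not pass the threshold of 0.05 on the adjusted p. The median log2 fold change was 3.51 over the 10 genes and 0.10 over all genes tested. In bulk libraries of this kind, fewer cells of a type and less RNA per cell cannot be told apart.

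**Figure D1:**
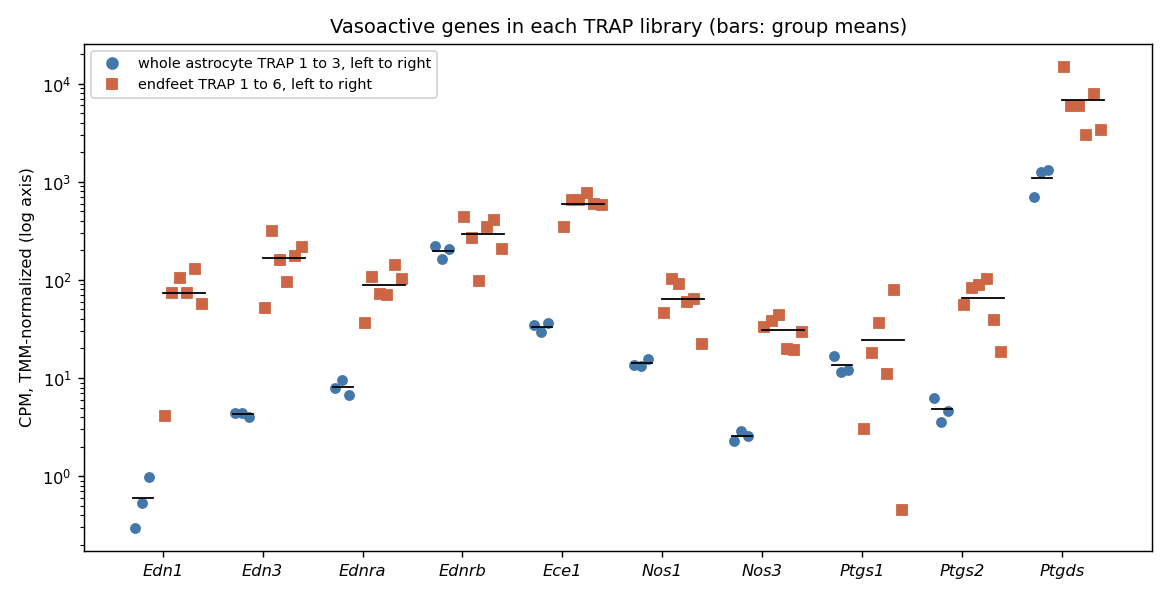
TMM-normalized CPM (log axis) of the 10 genes in each library, with 3 whole astrocyte TRAP libraries as circles, 6 endfeet TRAP libraries as squares and group means as bars. The endfeet libraries lie above all whole astrocyte libraries for 8 genes, while for Ednrb and Ptgs1 both groups overlap.

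The ligand Edn1 (chromosome 13, 42301476 to 42307990 on the plus strand of mm10), the main endothelin of endothelium, had the largest fold change of the 10 genes. It stood at 0.297, 0.529 and 0.988 CPM in whole astrocyte libraries 1 to 3 and at 4.13, 74.3, 104.2, 72.7, 128.0 and 56.2 CPM in endfeet libraries 1 to 6. Endfeet library 1 was far below the other endfeet libraries, yet still above the whole astrocyte libraries, which held only 11, 20 and 45 reads of the gene. The means were 73.3 ± 42.5 CPM (SD, n = 6) and 0.605 ± 0.351 CPM (SD, n = 3), and edgeR's quasi-likelihood test gave a log2 fold change of 6.90 with SE 1.03 (adjusted p = 2.05e-04, adjusted by Benjamini-Hochberg over all genes tested, as for all single genes here).

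Edn3 (chromosome 2, 174760619 to 174784042, plus strand), the endothelin that prefers the type B receptor, was measured at 4.41, 4.45 and 3.99 CPM in whole astrocyte libraries. In endfeet libraries 1 to 6 it was at 51.6, 312.9, 159.6, 96.0, 173.3 and 216.5 CPM. Even endfeet library 1, again the lowest, was 11.6 times the highest whole astrocyte library. Edn3 thus differed by 5.29 on the log2 scale (SE 0.598, adjusted p = 2.44e-05 from edgeR). Edn2, the other endothelin gene, had 0 counts over all endfeet libraries and 4 over the whole astrocyte libraries, which was too few for a test.

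The type A receptor Ednra (chromosome 8, 77663031 to 77724464, minus strand) was at 8.0, 9.47 and 6.76 CPM in whole astrocyte libraries. It was at 36.6, 108.0, 71.6, 70.2, 140.9 and 103.2 CPM in endfeet libraries 1 to 6. The groups did not overlap, and library 1 was once more the lowest of the endfeet libraries. For Ednra the log2 fold change was 3.45 (SE 0.490, adjusted p = 1.44e-04 from edgeR).

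The type B receptor Ednrb (chromosome 14, 103814625 to 103844402, minus strand) had other levels. It was at 221.8, 164.7 and 206.1 CPM in whole astrocyte libraries and at 434.3, 269.3, 98.4, 344.3, 403.8 and 208.8 CPM in endfeet libraries. Endfeet libraries 1, 2, 4 and 5 were above all whole astrocyte libraries, library 6 lay among them and library 3 was below them. The log2 fold change was 0.57 (SE 0.394, 95% confidence interval -0.28 to 1.42, adjusted p = 0.284 from edgeR), an interval that spans a level of 0.823 to 2.68 times that of whole astrocyte TRAP. Like Ednrb, the summed level of 12 astrocyte markers was lowest in endfeet library 3 and highest in libraries 1, 4 and 5. This sum ranged from 9626 to 29512 CPM in endfeet libraries, against 13798 to 16134 CPM in whole astrocyte libraries. Slc1a2 alone averaged 15307.5 CPM of it in endfeet TRAP, against 49.5 CPM for Aldh1l1 and 1592.3 CPM for Aqp4. Of the 12 markers 1 was higher and 6 were lower in endfeet TRAP. The part of astrocyte markers in the spread of Ednrb was not tested.

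Ece1 (chromosome 4, 137862237 to 137965229, plus strand), the converting enzyme that releases active endothelin, was at 34.5, 29.3 and 36.2 CPM in whole astrocyte libraries. It was at 344.7, 654.1, 645.2, 764.3, 597.5 and 585.2 CPM in endfeet libraries. Ece1 was the most even of the 10 genes among endfeet libraries, with a coefficient of variation of 23.3%, and its lowest endfeet library was 9.53 times the highest whole astrocyte library. Its log2 fold change was 4.17 (SE 0.329, adjusted p = 1.26e-06 from edgeR). Of the other endothelin genes in the list, the related converting enzyme Ece2 (log2 fold change 1.13, adjusted p = 0.347 from edgeR) and the peptidase Mme (1.95, adjusted p = 0.233 from edgeR), which degrades endothelins, did not pass the threshold. Of these 2 tested genes, 0 passed at an unadjusted p under 0.05 in edgeR, and 0 passed by DESeq2 or limma voom. Mmel1, with 6 counts over the endfeet libraries and 13 over the others, was not tested.

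The sequences before the start sites are shown for the endothelin genes at the ends of the range, Edn1 with the largest fold change and Ednrb with none called, and for the cyclooxygenases, whose ratio differed between the groups. They are the 250 bases before a RefSeq start (GRCm38.p6, the assembly of mm10), 5′ to 3′ on the gene's strand, at chr13:42301226-42301475 (plus) for Edn1, chr14:103843702-103843951 (minus) for Ednrb, chr2:36230176-36230425 (plus) for Ptgs1 and chr1:150099781-150100030 (plus) for Ptgs2, with capitals at the motif matches. The window of Ednrb lies inside the gene span given above, since GENCODE places the 5′ end of the gene further upstream, at 103844402, than this RefSeq start.
Edn1: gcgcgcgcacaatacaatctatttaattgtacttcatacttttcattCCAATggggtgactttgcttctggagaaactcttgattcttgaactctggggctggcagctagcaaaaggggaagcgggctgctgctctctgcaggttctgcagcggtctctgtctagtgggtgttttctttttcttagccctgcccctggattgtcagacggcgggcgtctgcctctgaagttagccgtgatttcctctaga
Ednrb: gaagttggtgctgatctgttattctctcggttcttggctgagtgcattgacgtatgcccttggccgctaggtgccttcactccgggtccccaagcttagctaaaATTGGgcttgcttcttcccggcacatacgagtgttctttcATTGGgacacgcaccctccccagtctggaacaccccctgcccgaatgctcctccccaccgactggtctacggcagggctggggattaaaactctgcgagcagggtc
Ptgs1: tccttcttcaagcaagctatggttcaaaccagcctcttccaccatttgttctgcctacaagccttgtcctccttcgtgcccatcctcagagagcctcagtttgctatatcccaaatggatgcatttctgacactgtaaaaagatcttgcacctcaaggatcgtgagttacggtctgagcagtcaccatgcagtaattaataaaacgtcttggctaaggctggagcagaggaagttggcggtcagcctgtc
Ptgs2: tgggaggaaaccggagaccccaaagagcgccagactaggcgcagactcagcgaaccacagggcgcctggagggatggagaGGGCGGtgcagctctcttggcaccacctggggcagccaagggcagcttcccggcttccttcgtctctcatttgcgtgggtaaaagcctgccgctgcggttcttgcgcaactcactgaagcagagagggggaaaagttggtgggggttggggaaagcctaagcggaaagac
The 6 motifs were searched on both strands, and they were found in the following shares of 32851 RefSeq promoters of the same length. The CCAAT box (CCAAT) was in 33.8% and the GC box (GGGCGG) in 32.7%, the TATA motif (TATAAA) in 12.4%, the GATA motif (AGATAA) in 9.99%, the AP-1 motif (TGAGTCA) in 4.46% and the cAMP response element (TGACGTCA) in 1.55%. Edn1 had a CCAAT box at -203 to -199 from the start, and Ednrb had a pair of them on the reverse strand, at -146 to -142 and at -106 to -102. Ptgs2 had a GC box at -170 to -165, and Ptgs1 had none of the 6 motifs in this window. No printed match overlapped another. The matches describe the letters of these windows only, and 9 of the 10 genes had an entry in the table of promoters.

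The neuronal nitric oxide synthase Nos1 (chromosome 5, 117781032 to 117958840, plus strand) was at 13.6, 13.2 and 15.5 CPM in whole astrocyte libraries. It was at 45.6, 103.0, 89.8, 60.0, 64.3 and 22.4 CPM in endfeet libraries 1 to 6. Library 6 was the lowest here, at 1.45 times the highest whole astrocyte library, and the groups did not overlap. For Nos1 it came to 2.19 on the log2 scale (SE 0.499, adjusted p = 0.00435 from edgeR), the smallest among the 8 genes that were higher. Of 12 neuron markers, 0 were higher and 4 lower in endfeet TRAP, and 8 missed the threshold. The summed level of these markers was 1095 to 2095 CPM in endfeet TRAP against 3779 to 4347 CPM in whole astrocyte TRAP. The part of neurons in the level of Nos1 was not tested. Most Nos1 reads lay on the transcript of 10123 bases. A shorter coding transcript of 4591 bases held 111, 83 and 146 reads in whole astrocyte libraries and 29, 97, 266, 116, 230 and 8 in endfeet libraries. The long transcript held 503, 497 and 705 reads and 243, 896, 1367, 745, 872 and 49 reads in the same libraries, and a read may be counted on both. The long transcript shared 268 exon bases with an antisense gene.

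Nos3 (chromosome 5, 24364810 to 24384474, plus strand), the synthase of endothelium, was at 2.27, 2.86 and 2.55 CPM in whole astrocyte libraries. It was at 32.8, 38.0, 43.7, 19.6, 19.4 and 29.7 CPM in endfeet libraries. Libraries 1, 2 and 3 were all above libraries 4, 5 and 6, and the lowest was 6.78 times the highest whole astrocyte library. For Nos3 the log2 fold change was 3.57 (SE 0.580, adjusted p = 4.11e-04 from edgeR). With endfeet libraries 4 to 6 alone, whose deposited tables were numbered in 1 sequence with those of the whole astrocyte libraries (what these numbers stand for is not stated), it was 3.03 (adjusted p = 0.00365 from edgeR). Nos3 shared 294 exon bases with the antisense gene Atg9b, which had 59, 43 and 69 reads in whole astrocyte libraries and 7, 81, 228, 49, 52 and 22 in endfeet libraries, and 1040 exon bases with the antisense gene Gm15587. Whether the reads were counted by strand is not stated, so the reads of these genes cannot be told apart where they overlap.

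The other genes of the nitric oxide list showed changes in both directions. Of 20 such genes 19 were tested. Among them 9 were higher and 4 lower in endfeet TRAP, and 6 missed the threshold, beside 20.7% higher and 13.9% lower among all genes tested. On the log2 scale their median was 0.32, where that of all genes was 0.10. Regulators of endothelial synthase were among those that were higher, with 8.24 (SE 0.775) for Nostrin, which traffics the enzyme, and 4.86 (SE 0.363) for Cav1, the caveolin that holds it inactive. Slc7a1, an arginine transporter, had 4.95 and Gch1, the first enzyme of the synthesis of the cofactor tetrahydrobiopterin, had 5.76, although Gch1 was at 0 CPM in at least 1 endfeet library and at 42.3 CPM in another. Further down the pathway Mrvi1, a substrate of the cGMP kinase, had 4.73, the cGMP phosphodiesterase Pde5a had 4.03 and the kinase Prkg1 itself 3.17. The inducible synthase Nos2 had 133 counts in 4 of 6 endfeet libraries and 2 counts in whole astrocyte TRAP, a pooled ratio of 139 relative to depth with a 95% exact interval of 37.8 to 1163 that covers counting error only.

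In contrast, Ddah1, which degrades the natural inhibitors of the synthases, fell by 3.12 on the log2 scale (SE 0.316), from 2064.9 to 2228.5 CPM in whole astrocyte libraries to 118.8 to 400.6 CPM in endfeet libraries. Its paralog Ddah2 fell by 1.54, and the later enzymes of tetrahydrobiopterin synthesis, Pts and Spr, fell by 1.91 and 1.80. Ddah1 made up most of the summed level of the nitric oxide list in whole astrocyte TRAP, and that sum was 2678 to 2831 CPM in whole astrocyte libraries and 1267 to 1874 CPM in endfeet libraries, although more of its genes were higher than lower. Of the soluble guanylate cyclase subunits, which bind nitric oxide, Gucy1a2 was higher by 2.06 on the log2 scale (SE 0.682, edgeR adjusted p = 0.0326), while the changes of Gucy1a1 (0.20) and Gucy1b1 (0.32) missed the threshold. When whole astrocyte library 1, 2 or 3 was left out, the calls of Nos2, Prkg1, Gucy1a2, Ddah2, Pts and Spr were lost. Those of Pts and Spr were also lost without endfeet library 2. Thus 6 of the 9 higher genes and 1 of the 4 lower genes, Ddah1, were called in every fit with a library left out. Over all genes, higher calls dropped from 2991 to between 1874 and 1959 without a whole astrocyte library. Lower calls over all genes dropped from 2006 to between 1171 and 1217 in the same fits.

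The constitutive cyclooxygenase Ptgs1 (chromosome 2, 36230426 to 36252272, plus strand) was at 16.7, 11.5 and 12.1 CPM in whole astrocyte libraries. It was at 3.0, 18.2, 36.0, 11.1, 78.4 and 0.457 CPM in endfeet libraries 1 to 6. Libraries 2, 3 and 5 were above all whole astrocyte libraries and libraries 1, 4 and 6 below them, and the highest endfeet library was 172 times the lowest, which held 1 read. The log2 fold change was 0.88 (SE 1.03, 95% confidence interval -1.34 to 3.10, adjusted p = 0.540 from edgeR), and it was -0.08 without endfeet library 5. The summed level of microglia and macrophage markers was 264.9, 440.6, 303.2, 263.7, 418.3 and 338.0 CPM in endfeet libraries 1 to 6. In whole astrocyte libraries it was 31.5 to 35.8 CPM. The sum was highest in endfeet libraries 2 and 5, and library 5 had the highest Ptgs1. Library 6 had the next highest sum and the lowest Ptgs1. Of these 12 markers 9 were higher in endfeet TRAP and 0 lower, and their part in the level of Ptgs1 was not tested.

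Ptgs2 (chromosome 1, 150100031 to 150108227, plus strand), the inducible cyclooxygenase, was at 6.22, 3.6 and 4.56 CPM in whole astrocyte libraries. It was at 55.9, 83.5, 89.0, 102.9, 38.9 and 18.3 CPM in endfeet libraries. The groups did not overlap, and libraries 5 and 6 were the lowest of the endfeet libraries. The log2 fold change was 3.76 (SE 0.615, adjusted p = 4.40e-04 from edgeR).

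Ptgds (chromosome 2, 25466709 to 25470046, minus strand), which makes prostaglandin D2 and is secreted into the cerebrospinal fluid, had a level per transcript length above that of the other 9 genes in both groups (7502 and 1201 CPM per kilobase). It was at 697, 1244 and 1305 CPM in whole astrocyte libraries and at 14753, 5858, 5859, 2972, 7768 and 3347 CPM in endfeet libraries. Endfeet library 1 was the highest and library 4 the lowest of the endfeet libraries, and whole astrocyte library 1 was the lowest of all. The log2 fold change was 2.64 (SE 0.517, adjusted p = 0.00158 from edgeR), 1.98 with endfeet libraries 4 to 6 alone (adjusted p = 0.0101) and 2.25 without endfeet library 1 (adjusted p = 0.001). Markers of choroid plexus epithelium, where Ptgds is also made, were summed to 92250, 41157, 26772, 14386, 7009 and 18940 CPM in endfeet libraries 1 to 6 and to 74.4, 1548 and 1267 CPM in whole astrocyte libraries. Over all 9 libraries, their sum and Ptgds were both highest in endfeet library 1 and lowest in whole astrocyte library 1. Among endfeet libraries Ptgds was lowest in library 4, while library 5, the next highest for Ptgds, had the lowest sum. Ttr alone averaged 31313.7 CPM of this sum in endfeet TRAP and 845.2 CPM in whole astrocyte TRAP. Fibroblast and meningeal markers, another known source, were summed to 1970 to 2714 CPM in endfeet TRAP and to 69.9 to 106 CPM in whole astrocyte TRAP, with their highest sum in library 5. The part of these cells in the level of Ptgds was not tested.

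**Figure D2:**
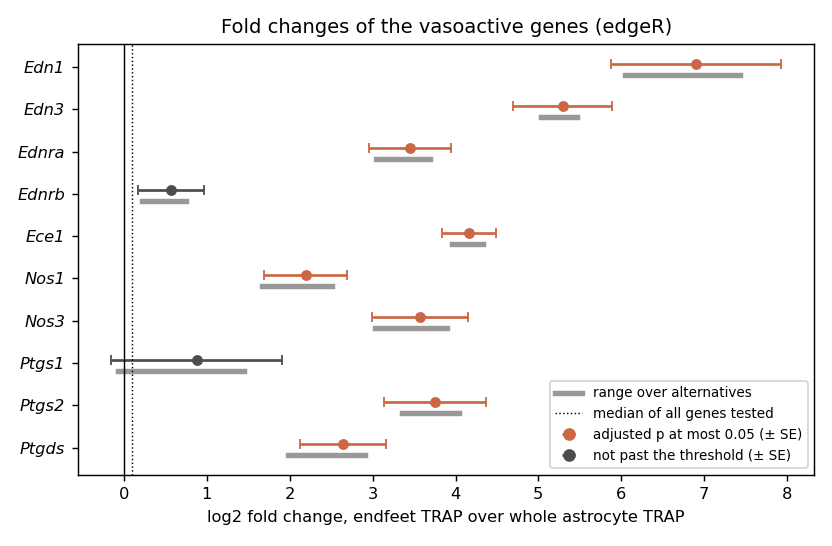
Log2 fold change of each gene in endfeet TRAP over whole astrocyte TRAP from edgeR (points, with bars for the SE), with the range over all alternative settings as grey bars and the median of all 14427 genes tested as a dotted line. The 8 genes past the threshold range from 2.19 for Nos1 to 6.90 for Edn1, and only the range of Ptgs1 crosses 0.

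Of 24 other genes of the prostaglandin list 22 were tested. Among them 10 were higher and 3 lower in endfeet TRAP, and 9 missed the threshold, beside 20.7% higher and 13.9% lower among all genes tested. On the log2 scale their median was 3.55, where that of all genes was 0.10. Receptors made up several of the higher genes, but of these receptors only Ptgfr was called in every fit with a library left out. The prostacyclin receptor Ptgir had 276 counts in 5 of 6 endfeet libraries and 0 in whole astrocyte TRAP, a mean at least 45.8-fold higher than the floor of 3 counts per library. Endfeet library 5 held the highest level at 13.05 CPM, and without it the mean was at least 20.4-fold higher than that floor. Ptgir did not pass the filter on low counts without endfeet library 3, 4 or 5 and was not tested there. The thromboxane receptor Tbxa2r had a log2 fold change of 5.53 (SE 1.93) and the prostaglandin F receptor Ptgfr 4.36 (SE 0.628). Among enzymes and transporters, the prostacyclin synthase Ptgis had 6.51, the phospholipase Pla2g4a, which releases arachidonic acid, 5.11, the uptake carrier Slco2a1 5.14, the efflux pump Abcc4 4.85 and the other prostaglandin D synthase Hpgds 4.17.

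The 3 lower genes, a share close to that among all genes, were Ptgr2, which reduces prostaglandin metabolites and fell by 2.36 on the log2 scale (SE 0.270), the carbonyl reductase Cbr1, which fell by 2.16, and the prostaglandin E synthase Ptges3, also a co-chaperone, which fell by 1.62. The inducible prostaglandin E synthase Ptges (1.73, adjusted p = 0.127 from edgeR) did not pass the threshold, and neither did the thromboxane synthase Tbxas1 (4.02, adjusted p = 0.0546 from edgeR) or the prostaglandin E receptor Ptger4 (3.41, adjusted p = 0.0505 from edgeR). The number of higher genes was 6 without endfeet library 5, and the number of lower genes was 1 without whole astrocyte library 2. Only 6 of the 10 higher genes and 1 of the 3 lower genes, Ptgr2, were called in every fit with a library left out. Calls over all genes also dropped without a whole astrocyte library, as given above beside the nitric oxide list. Of the genes named here, the call of Tbxa2r was lost without any single whole astrocyte library and without endfeet library 2, 3, 4 or 5, that of Cbr1 without any single whole astrocyte library, and that of Ptges3 without whole astrocyte library 2.

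**Figure D3:**
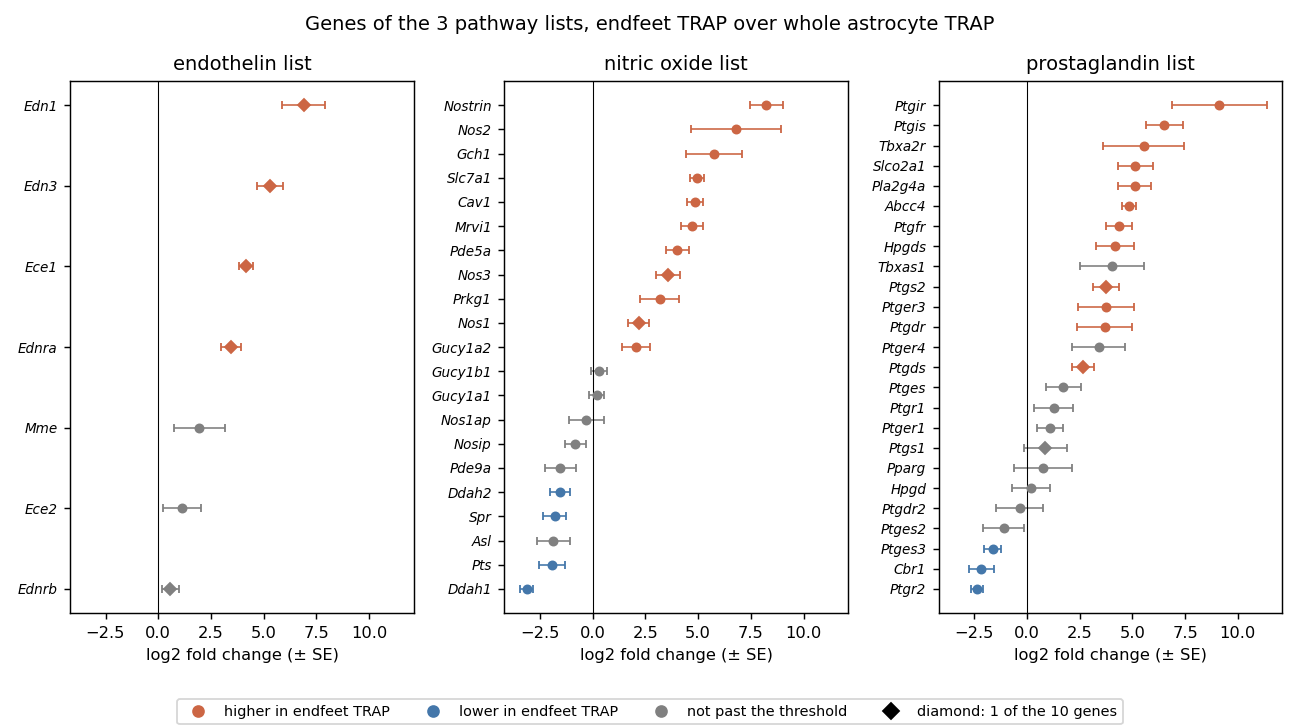
Log2 fold changes (± SE, edgeR) of the tested genes of the endothelin, nitric oxide and prostaglandin lists, with diamonds for the 10 genes followed here. All points of the endothelin list lie above 0, whereas the nitric oxide list reaches from 8.24 for Nostrin to -3.12 for Ddah1. The prostaglandin list reaches from 9.12 for Ptgir to -2.36 for Ptgr2. Ptgir had 0 counts in whole astrocyte TRAP, so the size of its fold change is not measured.

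Pathway partners were next compared as ratios within each library, which do not depend on the scaling between libraries. The receptors, synthases and cyclooxygenases shifted against each other, and the shift of the ligands was not past the test. The log2 ratio of Ednra to Ednrb was -4.79, -4.12 and -4.93 in whole astrocyte libraries and -3.57, -1.32, -0.46, -2.29, -1.52 and -1.01 in endfeet libraries. Type B receptor reads outnumbered type A reads in all 9 libraries, but less so in each of the 6 endfeet libraries, and the means differed by 2.92 (p = 0.0238, two-sided exact permutation test over 84 assignments, Benjamini-Hochberg adjusted over 4 ratios p = 0.0317). This p is the smallest that the 84 assignments allow.

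The log2 ratio of Nos3 to Nos1 was -2.46 ± 0.225 (SD, n = 3) in whole astrocyte TRAP and -0.98 ± 0.817 (SD, n = 6) in endfeet TRAP, a difference of 1.48 with all 6 endfeet libraries above the whole astrocyte libraries (exact permutation p = 0.0238, adjusted p = 0.0317). Only endfeet library 6 had more reads of Nos3 than of Nos1. The log2 ratio of Ptgs1 to Ptgs2 was 1.42, 1.68 and 1.41 in whole astrocyte libraries and -4.18, -2.20, -1.31, -3.21, 1.01 and -4.75 in endfeet libraries. Thus Ptgs1 had the more reads in every whole astrocyte library, and Ptgs2 had the more reads in 5 of 6 endfeet libraries, the exception being library 5. The means differed by -3.94 (exact permutation p = 0.0238, adjusted p = 0.0317). The ratio of Edn1 to Edn3 was -2.96 ± 0.916 (SD, n = 3) and -1.51 ± 1.27 (SD, n = 6), a difference of 1.44 (exact permutation p = 0.143, adjusted p = 0.143), and 4 of 6 endfeet libraries exceeded every whole astrocyte library. With a whole astrocyte library left out, or with endfeet libraries 4 to 6 alone, the differences of the receptors, synthases and cyclooxygenases kept their sign. Their adjusted p from the exact permutation test was 0.0952 to 0.1. Fewer libraries leave fewer assignments, and before adjustment each of these p-values was the smallest possible, so they cannot show a weaker difference.

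**Figure D4:**
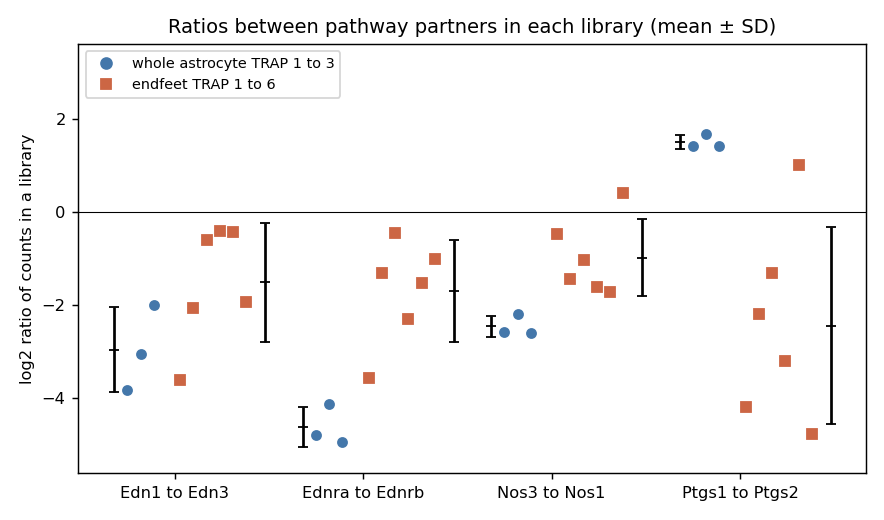
Log2 ratio of the counts of pathway partners in each library, with 3 whole astrocyte TRAP libraries as circles, 6 endfeet TRAP libraries as squares, and mean ± SD beside each group. The groups do not overlap for Ednra to Ednrb, Nos3 to Nos1 and Ptgs1 to Ptgs2, and they overlap for Edn1 to Edn3.

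Levels of the 10 genes were set against each other after division by transcript length, as mean CPM per kilobase. In whole astrocyte TRAP the order was Ptgds (1201), Ednrb (49.5), Ece1 (6.92), Ptgs1 (4.69), Ednra (2.23), Nos1 (1.39), Edn3 (1.37), Ptgs2 (1.08), Nos3 (0.619) and Edn1 (0.283). Nos1 and Edn3, and Edn3 and Ptgs2, overlapped in their libraries, while the other neighbours in this order did not. In endfeet TRAP the mean CPM per kilobase was 7502 for Ptgds, 124 for Ece1, 73.5 for Ednrb, 54.0 for Edn3, 34.2 for Edn1, 24.4 for Ednra, 14.5 for Ptgs2, 8.55 for Ptgs1, 7.39 for Nos3 and 6.34 for Nos1. Only Ptgds and Ece1 did not overlap there, and all other neighbours did. Ece1 was above Ednrb in 5 of 6 endfeet libraries and below it in each of the 3 whole astrocyte libraries. Edn1 was last in whole astrocyte TRAP and above Ednra in 4 of 6 endfeet libraries.

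Markers of vascular cells differed between the groups together with the vasoactive genes. All 12 endothelial markers were higher in endfeet TRAP, with a median log2 fold change of 9.57 and summed levels of 3350 to 5299 CPM against 6.52 to 8.73 CPM, and Ly6c1 had 0 counts in whole astrocyte TRAP. All 12 mural markers were also higher, with a median of 5.46 and sums of 3711 to 8315 CPM against 56.0 to 69.0 CPM. Both sums were lowest in endfeet library 1, which also had the lowest Edn1, Edn3, Ednra and Ece1 of the endfeet libraries. The other higher genes were not lowest there. Nos3 was lowest in library 5, Nos1 and Ptgs2 in library 6 and Ptgds in library 4, and Ptgds was highest in library 1. Of the fibroblast and meningeal markers 10 of 12 were higher and 0 lower (median 4.52), and of the choroid plexus markers 9 of 10 (median 5.27). The fold changes of the 8 genes lay below the median of the endothelial markers, which ranged from 6.95 to 12.32, and Edn1 at 6.90 came nearest to that range. The mural markers ranged from 3.31 to 9.56, and of the 8 genes only Nos1 and Ptgds lay below that range. All 8 genes lay inside the range of the fibroblast and meningeal markers, -0.33 to 8.90. Ependymal markers were higher for 5 of 8 genes (median 2.07), oligodendrocyte markers for 1 and lower for 1 of 12 (median -0.15), and astrocyte markers were higher for 1 and lower for 6 of 12 (median -1.10). The part of these cells in the levels of the vasoactive genes was not tested.

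**Figure D5:**
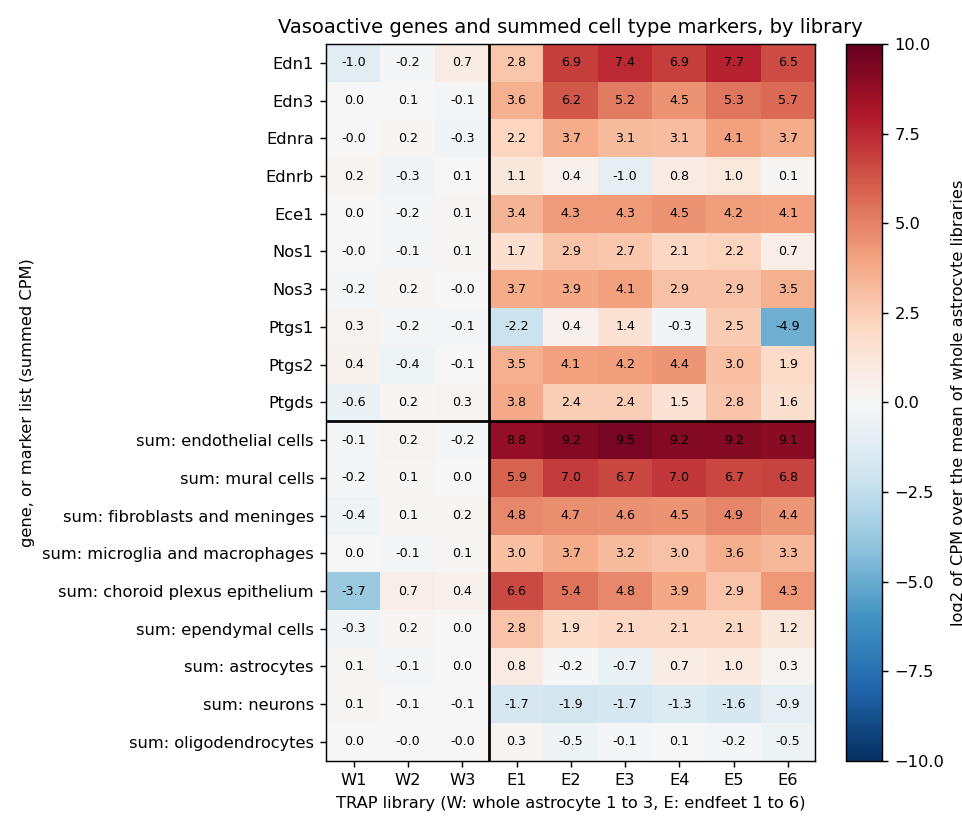
Log2 of the CPM of each gene, and of the summed CPM of each marker list, in each library over the mean of the 3 whole astrocyte TRAP libraries (W1 to W3 whole astrocyte, E1 to E6 endfeet). Endothelial and mural markers are high in all 6 endfeet libraries, Ednrb stays between -1.0 and 1.1, and Ptgs1 changes sign between endfeet libraries.

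The spread between endfeet libraries was wide and differed from gene to gene. The coefficient of variation of CPM ranged among endfeet libraries from 23.3% for Ece1 to 119.6% for Ptgs1, and among whole astrocyte libraries from 5.84% for Edn3 to 58.1% for Edn1. The ratio of the highest to the lowest endfeet library was 2.22 for Ece1 and 2.25 for Nos3 but 31.0 for Edn1. Without endfeet libraries 1 and 6, which had the fewest counts and were set aside after their values were seen, 8 of the 10 genes were still higher and 0 lower, with a log2 fold change of 7.29 for Edn1 and 4.33 for Ece1. Endfeet libraries 4 to 6 alone also gave 8 higher and 0 lower genes.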

How the data were processed

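TRAP RNA-seq libraries of whole astrocytes (n = 3) and endfeet (n = 6) were used. The authors aligned the reads to mm10 with Bowtie, removed reads with several alignments and counted the rest with HTSeq 0.5.3, and they deposited raw counts for each Ensembl transcript, not normalized. Of 75466 transcripts, 73164 matched 22092 genes of GENCODE M21, and the transcript with the largest CPM sum over the libraries stood for a gene, as counts of a gene's transcripts share reads. The detection floor, 3 counts, was 0.0658 to 0.0811 normalized CPM (whole astrocyte) and 0.197 to 1.37 (endfeet). Floors and exact count intervals cover counting error alone, as PCR copies are not separate molecules.

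The 9 libraries were fitted together in R 4.3.3 by the quasi-likelihood functions of edgeR 4.0.16 (glmQLFit, glmQLFTest) after TMM scaling and filterByExpr. Benjamini-Hochberg adjustment covered 14427 genes, at a threshold of 0.05. The SE is the absolute log2 fold change over the square root of F, and confidence intervals use the t distribution with the total degrees of freedom of the fit. Within-library ratios (0.5 added to each count) were tested by exact permutation, two-sided, in scipy 1.17.1. Alternatives were DESeq2 1.42.0, its size factors in edgeR, limma voom (limma 3.58.1) with group weights, no filter, at least 10 counts in every library, summed transcripts, a minimum log2 fold change of 1 in size, 1 count added in ratios, the library series as a covariate or endfeet libraries 4 to 6 alone, a replicate block, and each library left out. A library stands for 1 brain or a pool of 8 mice, and the paper gives 1 brain for each whole astrocyte extraction. Whether the libraries of a group were prepared on separate occasions is not stated. The p-values thus measure the spread between these libraries, which may be technical in part. edgeR's common dispersion was 0.705 among endfeet and 0.0140 among whole astrocyte libraries. The scripts were tested on simulated data.

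The genes, pathway lists and markers were chosen with earlier results of these data known. Named are the 10 genes, of each pathway list at most 8 genes past the threshold in each direction by absolute log2 fold change, and markers only beside a result. Genes of like pattern are the 3 with the smallest root mean square difference of gene-centred log2(CPM + 1) over the 9 libraries. Gucy1a2, pathway genes that did not pass the threshold or were not tested, and the overlapping antisense genes, were named after their values were seen. Sequences are RefSeq's.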

Additional observations from a re-analysis of the deposited data

How the results depend on the processing

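The count of 8 higher and 0 lower genes among the 10 was the same in all 11 other settings and in the 9 fits with a library left out, and so was the count of 0 among the other endothelin genes. With at least 10 counts in every library, Ptgs1 could not be tested, and 5 other genes of the nitric oxide list and 5 of the prostaglandin list were higher, where fewer genes were tested. With a library left out, the nitric oxide list had 6 to 9 higher and 1 to 5 lower genes and the prostaglandin list 6 to 11 higher and 1 to 3 lower genes. With a library left out, the fold change of Ptgs1 ranged from -0.0756 (without endfeet library 5, adjusted p = 0.961, edgeR) to 1.14, and its adjusted p over all settings was 0.0682 to 0.961. Over all genes, the count of higher and lower calls was 2991 and 2006 in edgeR and 3928 and 4485 in limma voom, and the cause was not tested.

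The ratio differences were 3.0 for Ednra to Ednrb, 1.48 for Nos3 to Nos1 and -3.82 for Ptgs1 to Ptgs2 with endfeet libraries 4 to 6 alone (exact permutation, adjusted p = 0.1). With endfeet libraries 1 and 6 left out, chosen after seeing the data, they were 3.22, 1.0 and -2.93 (adjusted p = 0.0762). With a library left out they ranged from 2.67 to 3.29, from 1.20 to 1.63 and from -4.63 to -3.48, and the adjusted p was 0.0476 without an endfeet library and 0.0952 without a whole astrocyte library. These settings have fewer libraries and so fewer assignments, and in each of them the p of these ratios before adjustment was the smallest possible.

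Same-numbered libraries did not deviate together (r = -0.04, 0.02 and 0.04 for numbers 1 to 3). With 3 whole astrocyte libraries, these r cannot exclude a pairing. Whole astrocyte libraries came from 1 brain each and endfeet libraries from pools of 8 mice, and the main fit used no pairing. The fit with a replicate block gave 8 higher and 0 lower genes of the 10 and, for the 3 ratios, 2.83, 1.47 and -4.06 (sign-flip exact permutation, adjusted p = 0.25, the smallest that 3 pairs allow). The block changed no call of a single gene among the 10. Endfeet libraries 4 to 6 have no partner in that fit, so its fold changes rest on the pairs numbered 1 to 3. The deposited tables of endfeet libraries 1 to 3 were numbered apart from those of the whole astrocyte libraries. Depth limits low genes most in endfeet library 6, where 3 counts are 1.37 normalized CPM.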

Other observations

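For 9 of the 10 genes, Ptgs1 being left out for a library with under 10 counts, the genes of most like pattern over the 9 libraries were found by the root mean square difference of gene-centred log2(CPM + 1). Since the groups differ for most of these genes, likeness in part reflects a like direction of change. The size can differ, as the added 1 CPM narrows differences at low levels. The genes nearest to Edn1 (log2 fold change 6.90) had log2 fold changes of 8.56, 8.60 and 12.68. Edn1 was nearest to Slc52a3 (0.441), Thsd1 (0.494) and Olfr558 (0.523), Edn3 to Bche (0.308), Mecom (0.399) and Itga8 (0.416), and Ednra to Phtf2 (0.304), Sema3d (0.315) and Tmem204 (0.333). Ednrb, with its overlapping groups, was nearest to Rbmx (0.230), Sdad1 (0.239) and Zfp3 (0.254), at smaller differences than those of the ligands. Ece1 was nearest to Sptan1 (0.212), Pcdh18 (0.240) and Esyt2 (0.256), Nos1 to 5330438I03Rik (0.148), H13 (0.173) and Tmem131 (0.228), and Nos3 to Fyco1 (0.182), Rrbp1 (0.243) and Megf6 (0.259). Ptgs2 was nearest to Notch1 (0.360), Rai14 (0.412) and Wnt5a (0.429), and Ptgds to Lclat1 (0.252), Sgpl1 (0.303) and Kcnt1 (0.344). Ptgds and its nearest genes were matched in pattern and not in level.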
